A study of Mus musculus with 12 samples.

Results

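The 4 genes described here encode enzymes of fructose breakdown and of glucose synthesis in the small intestinal epithelium: Khk, Tkfc, G6pc and Fbp1. They were chosen by name, with earlier results of these data known, and are 4 of the 20090 genes of the deposited table. The assay was droplet single-cell RNA sequencing that reads transcripts from the 3′ end. Cells came from equal segments along the small intestine, each tagged with a segment barcode, of adult mice of the strain Lgr5DTR-GFP, so every cell analysed carries that Lgr5 allele. The table holds 27881 sorted epithelial cells (CD45 negative, EpCAM positive) of the 8 diet samples, whose diets the labels do not name. Not analysed here were 2 samples of total epithelium, 2 of progenitors, the segment barcodes and the diets.

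Ketohexokinase (Khk) phosphorylates fructose to fructose 1-phosphate and commits it to fructolysis. The triokinase Tkfc phosphorylates the glyceraldehyde that fructose 1-phosphate yields, so the carbon enters the triose phosphate pool. Fructose bisphosphatase (Fbp1) and the catalytic subunit of glucose 6-phosphatase (G6pc) can then carry triose carbon to free glucose, G6pc as the last step inside the endoplasmic reticulum. The small intestine is known to clear much dietary fructose before it reaches the liver, and absorptive enterocytes of the villus are the cells that take it up.

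Cells fell into 8 barcode sets by the number at the end of the barcode. These numbers do not match the sample titles, so the sets are given as repeated values without a test, and nothing says that they came from separate animals. After filtering, 27834 cells remained. Values are whole numbers, yet 25.3% of cells held more entries of 2 than of 1, so they were not treated as molecule counts and the depth is unknown. Cell totals ran from 2764 to 9739, and median detected genes per set from 1694 to 2576. A level is the gene's share of the summed values of a group of cells in ppm, where 10000 ppm is 1%, and a difference as log2 of the ratio after adding 1 ppm to each side, which understates the change of low genes. A gene is called higher or lower where the mean of both groups is at least 10 ppm, the log2 difference is at least 1 in size, and every set goes the same way. The sort marker Epcam stood at 2182 ppm over all cells against 0.974 ppm for Ptprc, which encodes CD45.

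Clustering kept the 4 genes and 73 further genes of sugar metabolism out of the variable genes, so clusters do not rest on them. The rule that named the clusters, and so formed the groups below, was set after the members' levels in the clusters had been seen. Of the 19 clusters, 5 carried enterocyte markers (7215 enterocyte-like cells, 290 to 1556 per set) and 4 carried stem or cycling markers (7614 progenitor-like cells of the crypt, 140 to 1880 per set). A further 8 clusters with 12462 cells stayed unnamed, 1 was enteroendocrine-like (390 cells) and 1 led by stomach surface genes (153 cells). Enterocyte-like cells were cut within each set into 3 equal parts of a regional score, the mean level of 8 genes known from the distal intestine minus that of 8 known from the proximal intestine, none of them a fructolysis or gluconeogenesis enzyme. The parts are therefore ranks of expression and not measured positions: the proximal part has 2407 cells, the middle part 2406 and the distal part 2402, and 14.9% of the cells lie within 0.1 SD of a boundary.

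The sequence just before the RefSeq start of each gene is shown because the 4 genes were all called higher in enterocyte-like than in progenitor-like cells and lower in distal than in proximal ones below. Each run is the 250 bases before the RefSeq gene start on the build GRCm38.p6, read 5′ to 3′ on the gene's strand, and capitals mark matches to the searched motifs. The Khk gene lies on chromosome 5 from 30921431 to 30931248 (plus strand), Tkfc on chromosome 19 from 10587791 to 10605654 (minus strand), G6pc on chromosome 11 from 101367561 to 101377903 (plus strand) and Fbp1 on chromosome 13 from 62864753 to 62888282 (minus strand), in the GENCODE annotation of GRCm38. The RefSeq start lies inside the GENCODE gene for 3 of them, 128 bases past its first base in Khk, 155 in G6pc and 1396 in Tkfc, and matches it in Fbp1. The Tkfc run thus lies wholly within the GENCODE gene, and those of Khk and G6pc in part.
Khk, chr5:30921309-30921558, plus strand: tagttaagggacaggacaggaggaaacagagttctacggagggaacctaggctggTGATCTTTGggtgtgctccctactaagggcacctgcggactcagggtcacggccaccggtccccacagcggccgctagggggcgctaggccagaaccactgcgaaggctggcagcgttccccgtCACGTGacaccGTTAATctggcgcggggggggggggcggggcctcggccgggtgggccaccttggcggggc
Tkfc, chr19:10604259-10604508, minus strand: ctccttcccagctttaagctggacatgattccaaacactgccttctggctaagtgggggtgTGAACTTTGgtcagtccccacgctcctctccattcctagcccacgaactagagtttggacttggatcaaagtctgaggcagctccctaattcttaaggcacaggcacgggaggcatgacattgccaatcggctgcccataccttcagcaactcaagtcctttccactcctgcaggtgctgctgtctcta
G6pc, chr11:101367466-101367715, plus strand: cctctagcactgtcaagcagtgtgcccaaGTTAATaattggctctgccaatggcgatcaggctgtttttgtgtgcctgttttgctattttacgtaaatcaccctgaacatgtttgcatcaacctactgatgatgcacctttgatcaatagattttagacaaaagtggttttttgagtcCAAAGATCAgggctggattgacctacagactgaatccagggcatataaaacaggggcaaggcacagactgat
Fbp1, chr13:62888283-62888532, minus strand: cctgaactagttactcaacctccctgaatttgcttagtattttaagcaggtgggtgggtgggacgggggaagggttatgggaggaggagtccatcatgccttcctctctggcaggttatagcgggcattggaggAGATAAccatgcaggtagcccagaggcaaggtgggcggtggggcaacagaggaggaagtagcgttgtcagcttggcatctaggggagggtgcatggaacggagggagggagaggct

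The 9-base pattern CAAAGNNCA, of the kind bound by the nuclear receptor HNF4, matched once in Khk (195 bases before the start), once in Tkfc (189 bases) and once in G6pc (72 bases), on the reverse strand in the first 2. Among 32851 RefSeq promoters of the same length, 5.49% hold it on either strand. Khk and G6pc also hold GTTAAT, of the kind bound by the factor HNF1, 60 and 221 bases before the start, against 6.43% of all promoters. In Khk the E-box CACGTG stands 71 bases before the start, against 6.02% of all promoters. Fbp1 matched the pattern AGATAA, known from factors of the GATA family and found in 9.99% of promoters, and none of the other patterns. TGACGTCA, the site of cAMP response factors (1.55% of promoters), and TTTATG, a site of CDX factors (10.8%), matched in no member. The 6 patterns do not overlap each other and were chosen after these sequences had been seen, so the matches are a description only. The start regions also differed in base composition, from 43.2% G or C in G6pc to 67.2% in Khk, beside a median of 52.4% over all promoters.

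All 4 enzymes were higher in enterocyte-like than in progenitor-like cells. Khk, the entry step of fructolysis, had a lowest, median and highest set value of 18.8, 30.2 and 37.0 ppm in progenitor-like cells and of 292, 319 and 362 ppm in enterocyte-like cells. Over all cells this was 28.0 against 320 ppm, a log2 difference of 3.47 (3.06 to 3.90 over the sets). Tkfc, the triokinase of the route, ran at 22.7, 30.3 and 37.8 ppm in progenitor-like cells and at 160, 216 and 236 ppm in enterocyte-like cells, a difference of 2.80 (2.54 to 3.13). For both genes the lowest enterocyte set stood far above the highest progenitor set.

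G6pc, which releases free glucose, was close to absent in the crypt, at 0.170, 0.772 and 4.83 ppm over the sets, against 40.8, 50.5 and 71.8 ppm in enterocyte-like cells (log2 difference 4.89, 3.64 to 5.33). A value above 0 was found in 0.486% of progenitor-like cells and in 20.3% of enterocyte-like cells, and in 0 of 153 stomach surface-like cells, which allows a share of cells with a value of up to 1.96% (counting of cells only). Fbp1, which removes a phosphate from fructose 1,6-bisphosphate, differed least, at 21.7, 26.5 and 32.5 ppm in progenitor-like and 53.6, 61.4 and 73.9 ppm in enterocyte-like cells (1.13, 0.82 to 1.72). The 4 genes were called higher, against a background of 15.5% of 9413 genes called higher and 33.9% called lower. Khk exceeded Tkfc in 8 of 8 sets, and Tkfc exceeded Fbp1 in 8 of 8. The place of G6pc depended on the 1 ppm added to each side: its difference exceeded that of Khk in 8 of 8 sets, yet with 10 ppm added it was 2.55 against 3.12 for Khk.

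The Fbp1 call was kept in 15 of 21 alternatives. With a first, stricter rule for naming clusters that left out both clusters of the proximal end, the difference was -0.13. With the rule used here but leading genes of 100 ppm or more in place of 500 ppm, it was 0.51. It was 0.75 at a clustering resolution of 0.5, 0.92 with unnamed clusters of 2 or more enterocyte markers added, 0.93 with 10 ppm added to each side and 0.98 with a stricter cell filter, each short of a call. Khk, Tkfc and G6pc were called higher under all 21 alternatives.

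**Figure D1:**
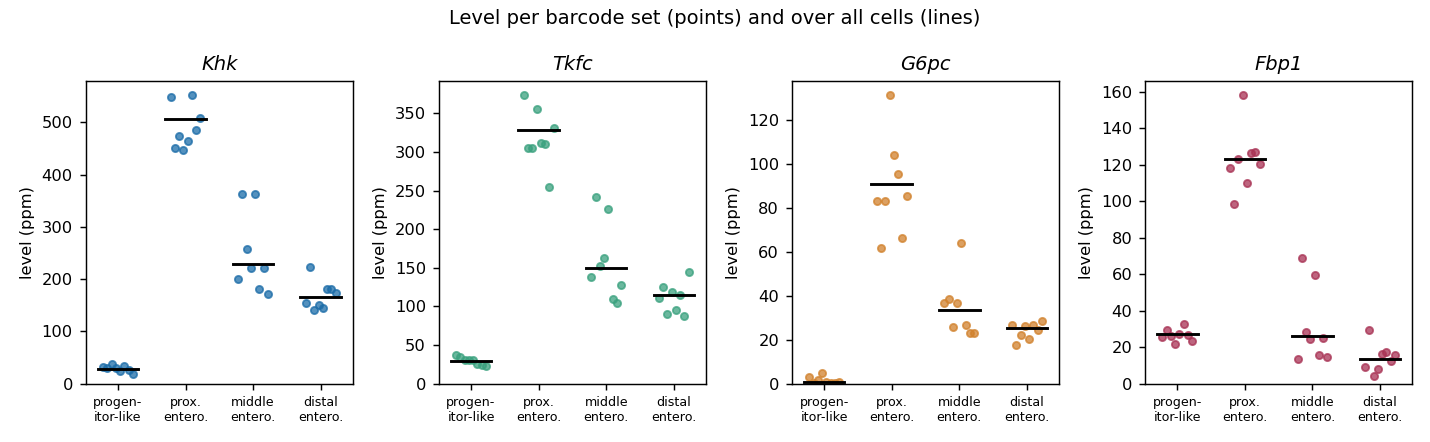
Level of each gene in ppm (vertical axis, starting at 0) in progenitor-like cells and in the proximal, middle and distal parts of enterocyte-like cells. Points are the 8 barcode sets, in set order from left to right, and lines are the value over all cells: proximal points lie above all distal points for each gene, and Fbp1 falls below its progenitor line in the distal part.

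Along the regional score the 4 enzymes had their highest levels in the proximal part. Khk stood at 447, 480 and 552 ppm (lowest, median and highest set) in proximal and at 140, 164 and 222 ppm in distal enterocyte-like cells. The log2 difference, distal minus proximal, was -1.60 (-1.82 to -1.02). Tkfc stood at 255, 311 and 374 ppm against 88.2, 113 and 144 ppm, a difference of -1.51 (-1.75 to -1.19). In each case the highest distal set remained below the lowest proximal set.

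For G6pc the proximal values were 61.7, 84.3 and 131 ppm and the distal ones 17.8, 25.4 and 28.4 ppm, a log2 difference of -1.81 (-2.29 to -1.40). Fbp1 fell most, from 98.5, 122 and 158 ppm to 3.98, 14.1 and 29.2 ppm, a difference of -3.08 (-4.64 to -1.72). Only 52 of 7980 genes tested had a more negative difference than Fbp1. The 4 genes were called lower, beside 18% of all genes called lower and 10.4% called higher. In 8 of 8 sets Fbp1 fell more than Khk and more than Tkfc, and in 7 of 8 more than G6pc, whereas Khk and Tkfc did not separate (Khk fell more in 4 of 8 sets). The share of proximal cells with a value was 92.1% for Khk, 83.5% for Tkfc, 39.3% for G6pc and 45.8% for Fbp1. In distal cells these shares were 40.7%, 31.1%, 8.87% and 5.08%, and in stomach surface-like cells, where the genes were lowest or near it, 11.1% for Khk, 7.19% for Tkfc and 2.61% for Fbp1 (median detected genes 2773 in proximal, 1675 in distal and 2369 in stomach surface-like cells).

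Detected genes per cell moved with the regional parts. Summed markers of other cell types did as well: all 9 goblet markers had values in each part and summed to 1834 ppm (414 to 4657 over sets) in proximal and 5924 ppm (1909 to 12853) in distal cells. The 9 Paneth markers summed to 1417 ppm (906 to 2773) and 5869 ppm (3153 to 10150), and the 13 enteroendocrine markers to 368 ppm (205 to 805) and 1065 ppm (596 to 2155). The clusters within the parts differed too. Those led by Leap2 and by Reg1 made up 46.6% and 40.0% of proximal cells, beside 0.749% and 1.79% of distal cells. The cluster led by the villus tip genes Ada and Nt5e made up 4.07% of proximal, 41.3% of middle and 33.6% of distal cells. Regional parts thus also differ in their share of tip-led cells. The part of these RNAs and of this make-up in the differences was not tested. With 866 cells of each part matched on detected genes within the sets, at medians of 2180 and 2192 genes, all 4 genes were again called lower. In these matched cells 631 genes were called lower, against 1434 without matching.

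The size of the difference depended on the score. With the 8 distal scoring genes alone, the differences were -0.89 for Khk, -0.86 for Tkfc and -0.63 for G6pc, none of them called, and -2.14 for Fbp1, which was called. Under the first rule for naming clusters Khk (-0.93) and Tkfc (-0.79) were not called, while G6pc (-1.22) and Fbp1 (-1.55) were. Fbp1 was called lower under all 27 alternatives.

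The calls lay between the proximal and the middle part. Middle minus proximal, the log2 differences were -1.14 for Khk, -1.13 for Tkfc, -1.42 for G6pc and -2.19 for Fbp1, all called lower where 3.89% of genes were. Distal minus middle, none of the 4 was called, with differences from -0.89 for Fbp1 to -0.38 for Tkfc, where 2.45% of genes were called lower. In the middle part sets 2 and 5 stood apart: Khk was 363 and 362 ppm there against 173 to 258 ppm in the other 6, and Fbp1 68.9 and 59.6 ppm against 13.3 to 28.5 ppm. The middle parts of these sets also had the lowest median regional scores, -0.39 and -0.35, beside 0.07 to 0.74 elsewhere. Equal parts of a set thus do not cover equal ranges of the score.

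Cut into 10 equal parts, the enterocyte-like cells gave a graded profile. Khk went from 585 ppm in the first part to 326 ppm in the fourth and 165 ppm in the seventh, and then stayed between 157 and 177 ppm. Tkfc followed the same course, from 398 to 208 and 119 ppm, and ended at 115 ppm. Both reached less than 50% of their highest part at the fifth. G6pc passed that mark at the fourth part (111 ppm at first, 54.6 ppm in the fourth). Fbp1 passed it already at the third, with 181, 122, 81.1 and 45.2 ppm in the first 4 parts and 13.0 ppm in the last. Median detected genes fell over the same parts from 2864 to 1726, and their part in the profile was not tested.

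**Figure D2:**
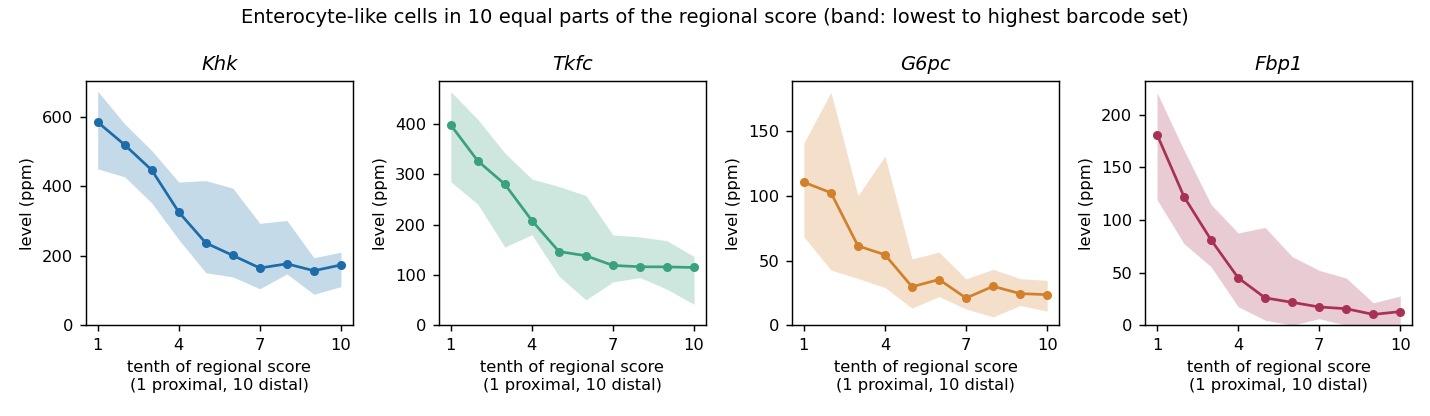
Level in ppm (vertical axis, starting at 0) over 10 equal parts of the regional score within each set, from the most proximal (1) to the most distal (10). Lines join the values over all cells and bands run from the lowest to the highest barcode set: Fbp1 drops below 50% of its first value at the third part, Khk and Tkfc at the fifth.

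Set against the crypt, Fbp1 was higher at the proximal end of the score and not called at the distal end. Proximal enterocyte-like cells exceeded progenitor-like cells of the proximal part by 2.18 (1.77 to 2.97), higher in 8 of 8 sets and called, where 15% of genes were called higher and the median over all genes tested was -0.39. Distal enterocyte-like cells fell short of distal progenitor-like cells, with 13.7 against 26.1 ppm and a difference of -0.88 (-2.29 to -0.08), below 0 in 8 of 8 sets but not past the size needed for a call, where 39.9% of genes were called lower and the median over all genes tested was -0.65. The difference between these effects was not tested. Khk (2.68), Tkfc (2.02) and G6pc (3.80) were called higher in the distal comparison too, where 15.7% of genes were.

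In progenitor-like cells the same score showed no regional call among the members, where 0.219% of 9585 genes were called in either direction. Khk was 35.6 ppm in proximal and 25.1 ppm in distal progenitor-like cells (log2 difference -0.49, -1.27 to 0.50, below 0 in 7 of 8 sets). Tkfc differed by -0.20 (-0.49 to 1.15) and Fbp1 by -0.02 (-0.52 to 0.20), while G6pc was below 10 ppm and was not tested. The score separates crypt cells poorly, since 42.8% of them had a score of 0. Khk was called lower (-1.07) at a clustering resolution of 2.

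Position on the villus was approached with a score of 6 genes known from the villus tip, cut at the median within each set and regional part into tip-high and tip-low cells. The tip score was 0 in 29.3% of enterocyte-like cells, and ties were broken at random. No member was called over all enterocyte-like cells, where 2.07% of 7983 genes were called higher and 0.213% lower. Khk ran lower in tip-high cells in 8 of 8 sets, 263 against 374 ppm (-0.50, -0.56 to -0.41), and its set ranges did not overlap. Tkfc differed by -0.38 (8 of 8 sets), Fbp1 by -0.30 (6 of 8) and G6pc by -0.16 (5 of 8). Median detected genes were 1813 in tip-high and 2279 in tip-low cells. With the groups matched on detected genes Khk stood at -0.23, and with a stricter cell filter at -0.035.

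Within the regional parts the tip comparison was uneven. In the proximal part Khk was 470 ppm in tip-high and 543 ppm in tip-low cells (-0.21) and no member was called, where no gene at all was called lower and 0.341% higher. In the middle part Khk was called lower, at 133 against 316 ppm (-1.24, -1.80 to -0.27), where 6.14% of genes were. Median detected genes there were 1650 in tip-high and 2289 in tip-low cells, the 9 goblet markers summed to 6696 ppm (1453 to 17929 over sets) against 3482 ppm (647 to 7699), and the 9 Paneth markers to 5866 ppm (4439 to 8819) against 2939 ppm (1490 to 4154). In the distal part G6pc was called lower, at 15.8 against 34.1 ppm (-1.07, -3.45 to -0.53), where 3.85% of genes were. Here detected genes were 1592 and 1781, and goblet markers 6634 ppm (2195 to 14374) against 5264 ppm (1671 to 11559). Paneth markers stood at 6634 ppm (3384 to 13944) against 5158 ppm (2929 to 7987). The part of detected genes and of these markers in either call was not tested. In the distal part Khk differed by -0.97 and Tkfc by -0.85, each below 0 in 8 of 8 sets. Fbp1 stood at 8.66 ppm in tip-high and 18.4 ppm in tip-low distal cells, lower in 6 of 8 sets and not called. The difference between the parts was not tested.

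**Figure D3:**
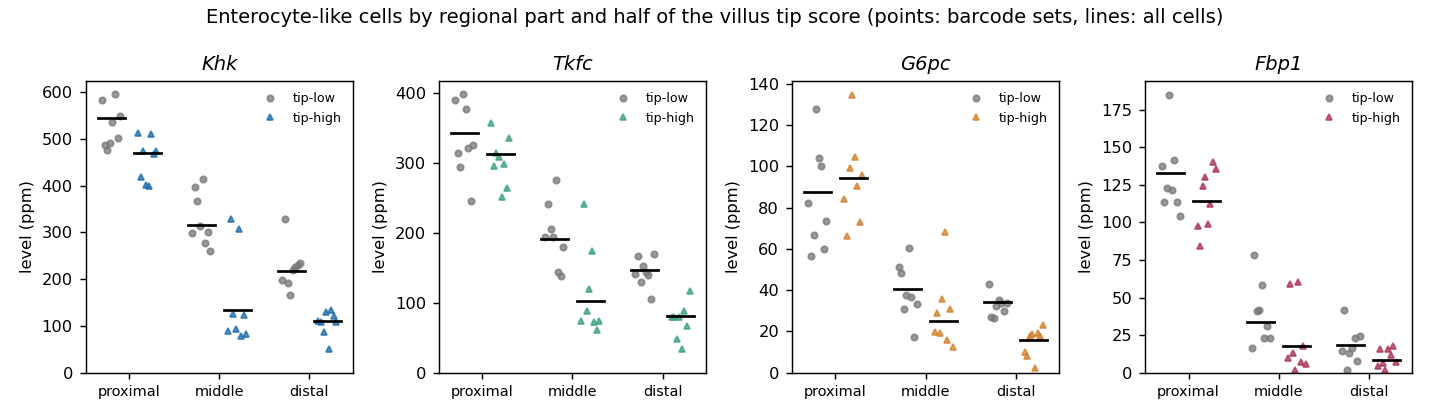
Level in ppm (vertical axis, starting at 0) in tip-low (circles) and tip-high (triangles) enterocyte-like cells in each regional part. Points are barcode sets and lines the value over all cells: for Khk the lines lie at 543 and 470 ppm in the proximal part and at 316 and 133 ppm in the middle part.

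By cluster, the order of levels was headed by the same cluster for each member. The cluster led by Leap2, Apoc2 and S100g, with the most proximal score, had 499 ppm of Khk (427 to 561 over sets), 335 ppm of Tkfc (287 to 373), 110 ppm of G6pc (76.2 to 133) and 134 ppm of Fbp1 (96.9 to 166). The next for Khk, Tkfc and Fbp1 was the cluster led by Reg1 and Papss2, with 456, 274 and 89.2 ppm, and its set ranges overlapped those of the first for each of the 3 genes. For G6pc the cluster led by Plb1, Cubn and Lct, the lactase gene, came second at 54.7 ppm, just above the 47.6 ppm of the Reg1 cluster and overlapping it.

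A pair of enterocyte-like clusters, both with most of their cells in the middle and distal parts, differed from each other. The Plb1 cluster held 294 ppm of Khk (264 to 359) and the cluster led by the villus tip genes Ada, Nt5e and Slc28a2 held 91.3 ppm (59.7 to 112), without overlap. In the tip-led cluster Khk was lower by a log2 difference of -1.68, Tkfc by -1.28, G6pc by -1.82 and Fbp1 by -1.84, all called lower where 10.4% of genes were. This pair was chosen after the values were seen. Their median regional scores were 0.82 and 0.62, and their median detected genes 1905 and 1517.

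Among the clusters without a class, the one led by the ileal bile acid genes Fabp6 and Slc51a had 125 ppm of Khk and 109 ppm of Tkfc, beside 6.23 ppm of G6pc and 19.5 ppm of Fbp1. The cluster led by the goblet genes Fcgbp and Muc2, 83.1% of it from set 4 and with 5 of 12 enterocyte markers raised, had 262 ppm of Khk (201 to 564 over 4 sets). Crypt clusters lay between 20.5 and 35.1 ppm for Khk, between 28.4 and 30.5 ppm for Tkfc and between 18.5 and 31.5 ppm for Fbp1, with overlap between neighbours in the order, and at 0.622 to 1.44 ppm for G6pc. Fbp1 in the tip-led cluster, at 7.22 ppm (5.21 to 16.9), was below each crypt cluster over all cells.

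**Figure D4:**
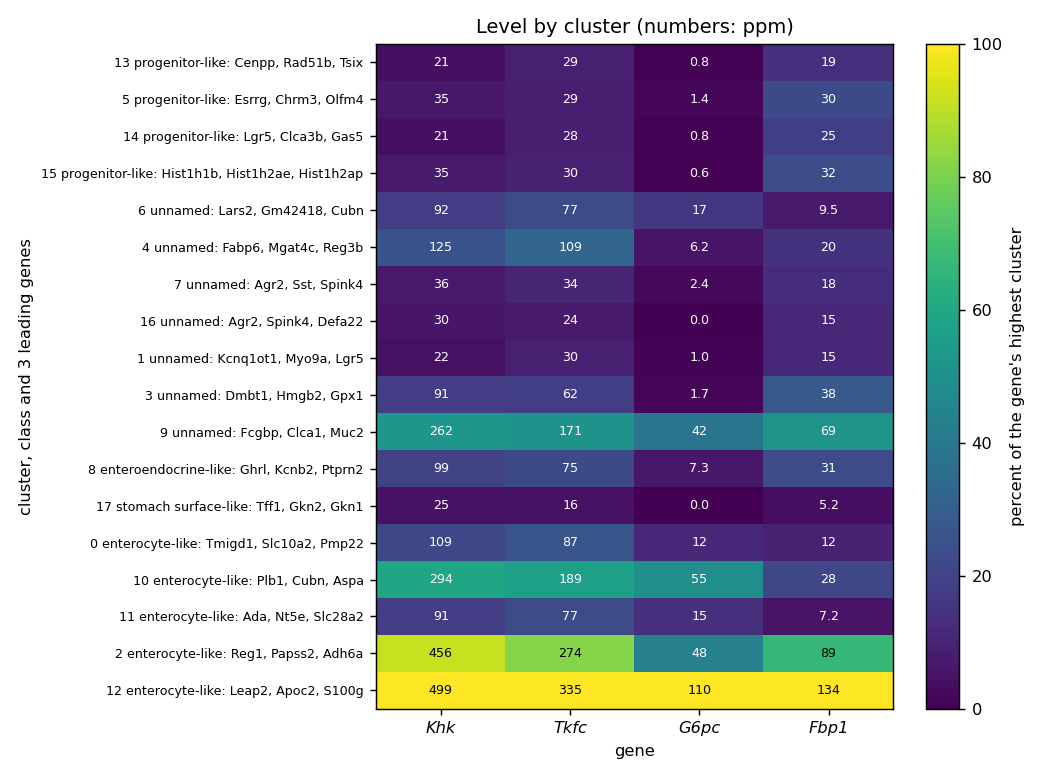
Level of the 4 genes (columns) in each of the 18 clusters with at least 50 cells (rows, named by class and 3 leading genes). Numbers are ppm and colour is the percent of the gene's highest cluster: each gene is highest in the enterocyte-like cluster led by Leap2.

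Related enzymes are encoded by other genes, and the members' shares of the summed values of each pair are given here. As each transcript is read at its 3′ end, the shares compare transcript ends and not coverage per length. G6pc made up 2.23% of the G6pc and G6pc3 total in progenitor-like cells (0.460 to 18.2% over sets) and 81.7% in enterocyte-like cells (65.8 to 89.9%), while G6pc3, the widely expressed form, was lower there (12.0 against 36.5 ppm). Fbp2, the second fructose bisphosphatase, which lies next to Fbp1 on chromosome 13, held the larger share of its pair in each group. Fbp1 made up 22.1% of the pair in proximal (18.3 to 27.9%), 8.10% in middle and 4.85% in distal cells (1.53 to 9.20%), and 18.0% in progenitor-like cells (16.2 to 21.4%). Over all enterocyte-like cells its share was 15.03% (13.9 to 18.5%), which overlaps the progenitor range. Fbp2 itself differed by -0.69 between distal and proximal cells (-0.93 to -0.53), which was not called, and this range over sets does not overlap that of Fbp1.

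The neighbours of the members in the pathway were read the same way. Slc2a5, the apical fructose transporter, was 141 ppm in proximal and 33.9 ppm in distal enterocyte-like cells (-2.03, -2.53 to -1.06). Slc2a2, which carries glucose and fructose across the basolateral membrane, fell from 482 to 115 ppm (-2.06), and Slc37a4, the carrier that brings glucose 6-phosphate to G6pc, from 73.1 to 16.1 ppm (-2.11). These 3 were called lower, as G6pc3 was (-1.55). Slc5a1, the sodium-coupled glucose transporter, did not follow: it stood at 1241 and 1261 ppm (0.02). Pck1, the cytosolic enzyme that makes phosphoenolpyruvate, was not called either (-0.59, 7 of 8 sets below 0), nor were Pcx, the pyruvate carboxylase (0.40), and Glyctk, the glycerate kinase (-0.38).

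Over the 73 other genes of the list, which covers sugar entry, fructolysis, the polyol route, gluconeogenesis, glycolysis, their regulators and lipogenesis, 58 were tested between distal and proximal cells. Of these 20 were called lower, 5 higher and 33 neither, where 18% of all genes tested were called lower and 10.4% higher. Their median was -0.65, beside -0.15 over all genes tested. In the group of gluconeogenesis steps 4 of 7 tested were called lower, the members G6pc and Fbp1 among them, and in sugar entry 3 of 4. Of the steps shared by glycolysis and gluconeogenesis 6 of 9 tested were called lower, and of those of glycolysis only 2 of 8. Outside the neighbours the lowest were Me1 (malic enzyme, -2.32), Pgam1 (phosphoglycerate mutase, -2.15), Got2 (mitochondrial aspartate aminotransferase, -2.10), Elovl6 (fatty acid elongase, -2.06) and Cebpb (a transcription factor, -1.77). Among those called higher were the hexokinase Hk2 (2.58), the nuclear receptor Hnf4a (1.42, 421 against 157 ppm) and Pfkfb3 (1.17) and Pfkfb4 (1.07), which set the level of the Fbp1 inhibitor fructose 2,6-bisphosphate.

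**Figure D5:**
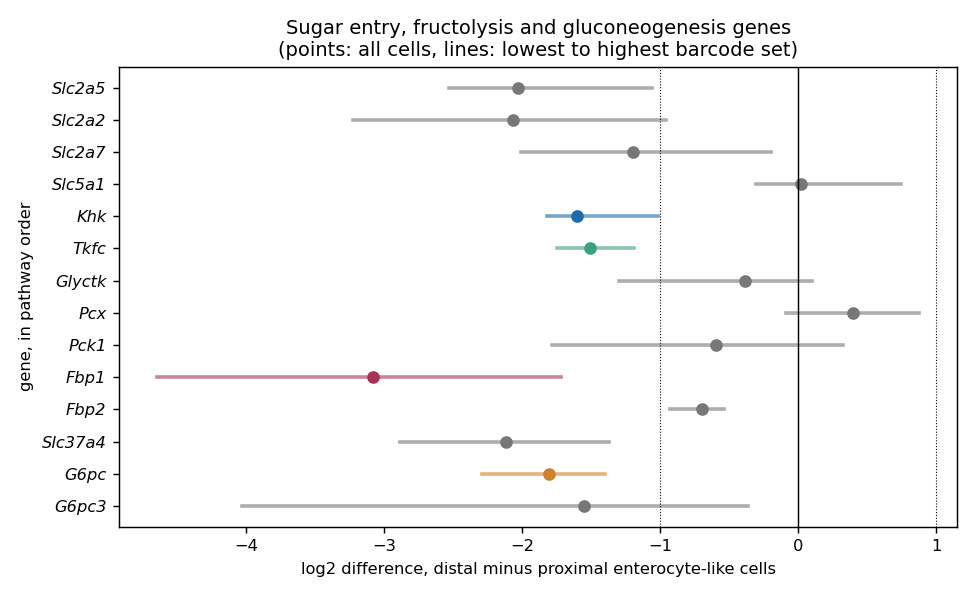
Log2 difference of distal minus proximal enterocyte-like cells (horizontal axis; dotted lines at -1 and 1) for genes of sugar entry, fructolysis and gluconeogenesis in pathway order. Points are values over all cells and lines run from the lowest to the highest barcode set: Fbp1 lies farthest left at -3.08, while Slc5a1 lies at 0.02.

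Between enterocyte-like and progenitor-like cells 60 of the 73 other genes were tested. Of these 34 were called higher, 9 lower and 17 neither, where 15.5% of all genes tested were called higher and 33.9% lower. Their median was 1.19, beside -0.46 over all genes tested. Slc2a2 (6.08), Pck1 (4.46), Slc2a5 (4.28), Slc5a1 (3.65), Pcx (1.86), Fbp2 (1.46), Slc37a4 (1.38) and Aldoa (1.10) were called higher. Among the others the largest were Creb3l3 (a transcription factor of the fasting response, 5.33), Gpt (alanine aminotransferase, 4.51), Gk (glycerol kinase, 4.18), the hexose transporter Slc2a7 (4.15) and the hexokinase-like Hkdc1 (3.59). Called lower were the mitochondrial Pck2 (-2.66), Hk2 (-2.49), Fasn (fatty acid synthase, -1.95), Akr1b3 (aldose reductase, -1.87), Acly (ATP citrate lyase, -1.74), G6pc3 (-1.53) and Foxa1 (-1.49) with 2 more. Pck1 made up 4.55% of the Pck1 and Pck2 total in progenitor-like and 91.4% in enterocyte-like cells, a change of the same kind as that of G6pc and G6pc3. None of the 57 other genes tested between tip-high and tip-low cells was called, where 2.07% of all genes were called higher and 0.213% lower. Nor was any of the 54 tested between regional parts of progenitor-like cells, where 0.219% of all genes were called. At such low shares these counts do not set the list apart.

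Likeness of pattern was measured as Pearson's r of log2(ppm + 1) between a member and each gene of at least 10 ppm. It was taken over clusters, or over profiles by set and regional part, points that share libraries and depth. Over the 18 clusters Khk and Tkfc were each other's nearest gene among 9255 (r = 0.98), followed for Khk by Cda, Smlr1, Sar1b and Slc25a45 and for Tkfc by Slc2a5, Sucla2, Tmem86b and Tmem253. The gene nearest to G6pc was Slc2a5 (0.98), then Cdr2, Slc35c2, Tmem86b and Slc5a11. Fbp1 ranked apart, nearest to Slc37a4 (0.93), Cd302, Vwce, Ckb and Aqp11, with an r of 0.63 to Khk, 0.65 to Tkfc and 0.53 to G6pc. Over the 24 profiles of enterocyte-like cells by set and regional part, where no crypt cells enter, Khk was the gene nearest to Fbp1 (0.97). The nearest to Khk was Gpd1, the glycerol 3-phosphate dehydrogenase (0.98), to Tkfc Smim24 (0.98) and to G6pc Hadh (0.97).

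Single cells often held several of the transcripts. In the proximal part 481 of 2407 cells had values for all 4 genes and 37.0% for 3 of them, and 3.57% had none. Of proximal cells with Fbp1, 97.0% had Khk and 91.1% had Tkfc, and of those without Fbp1 87.9% and 77.1% did. G6pc was found in 47.9% of proximal cells with Fbp1 and 32.0% of those without. Across proximal cells Pearson's r of log values was 0.46 for Khk and Tkfc, 0.40 for Tkfc and Fbp1, 0.37 for Khk and Fbp1 and 0.22 for Khk and G6pc, a description over 2407 cells that differ in depth. In progenitor-like cells 61.3% had none of the 4 and 0.0263% had all.

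Counting could blur 1 member: Tkfc overlaps Cyb561a3 and Ddb1 on the opposite strand, and the sources used here do not state whether the authors' counting used strand. Khk, G6pc and Fbp1 overlap no other annotated gene. Khk has 5 annotated transcripts, including isoforms with different internal exons, which 3′ reads do not tell apart.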

How the data were processed

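Sorted epithelial cells of 8 diet samples were measured by 3′ droplet sequencing. Cell Ranger and the build mm10 were used, per the submitters' processing notes, while the sources used here do not state the version, cell filter or merging. The deposited values are treated as a score (whole numbers with no stated scale), since their distribution differs from that of molecule counts, and no count model was run. The table maps no cell to a sample, so it is 1 pooled sample with no test, and no paired or diet comparison was made. Shares of cells cover counting error only.

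A minimum of 500 detected genes and a mitochondrial share of no more than 25% removed 2 cells. Scrublet (expected rate 0.06) marked 45 cells (0.161%), below the expected rate, and these were removed. The reason for the low rate was not tested, and doublets may remain. Between sets 80 pairs of cells share a barcode. Cells were scaled to 10000, log-transformed and clustered with scanpy 1.11.5 and leidenalg 0.10.2 (2000 variable genes, 30 components, 15 neighbours, resolution 1) in Python 3.11.15, with numpy, scipy and matplotlib. Score boundaries broke ties at random with a fixed seed.

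A cluster took the name of a marker list where 3 or more markers reached 10 ppm and a 2-fold excess over the remaining cells, and the list's median log2 fold exceeded by 0.5 that of any rival list with 3 such markers. A cluster stayed unnamed where markers of another list outnumbered its own among the 10 genes with the highest fold at 500 ppm or more. This rule was the last of 3 versions and was set after the clusters and the members' levels in them had been seen. A first version took all 14 lists as rivals and names and leading genes of 10 ppm or more. It left a cluster with 10 of 12 enterocyte markers unnamed and called a secretory cluster red blood cell-like. Only 2544 of the 7215 enterocyte-like cells were kept, without the clusters led by Leap2, Reg1 or Ada. The second version, the last rule with leading genes of 100 ppm or more, kept 5981. The Leap2 cluster of 1234 cells, highest for each member, was left out by both and entered only under the last version. Both earlier versions are among the alternatives.

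The members, gene lists, scores and calling rule were chosen with earlier results of these data known. Named besides the members are their pathway neighbours, their paralogues, up to 5 called list genes with the largest difference in each direction, and the 5 genes most like each member. Of these, 2 list genes are not reported here. G6pc2 has no row in the table. The contrast step was tested on simulated data. Promoter sequences are RefSeq's (GRCm38.p6), with an entry for 4 of 4 members. Gene positions are GENCODE's for GRCm38, the assembly of mm10.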

Additional observations from a re-analysis of the deposited data

Results flagged for a closer look

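Of 20 groups of 8 set values checked (4 genes in 5 groups of cells), 1 held a value far from the others: G6pc in the middle part of enterocyte-like cells was 64.1 ppm in set 5, with the next highest set at 38.7 ppm. The gap took 0.617 of the whole range, above the critical value of Dixon's test for 8 values, and chance flags about 1 in 20 such groups.

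Fbp1 had differences of opposite sign at the proximal and the distal end relative to crypt cells of the same part, of which only the proximal one was called. The log2 difference was 2.18 in the proximal part, above 0 in each of the 8 sets, and -0.88 in the distal part, below 0 in each of the 8 sets. The medians over all genes tested were -0.39 and -0.65 in these comparisons. The difference between these effects was not tested.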

How the results depend on the processing

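No paired analysis was possible because no label maps a cell to a sample. Leaving out each barcode set in turn, or sets 4 and 7, which hold most secretory cells, kept each result within its spread over sets. The first marker rule for naming clusters, the 100 ppm form of the last rule, the removal of sets 4 and 7 and the addition of unnamed clusters were chosen after seeing the data.

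Between enterocyte-like and progenitor-like cells, Fbp1 (1.13) reversed to -0.13 under the first marker rule, which kept 2544 enterocyte-like cells, and was 0.51 under the 100 ppm form and 0.75 at resolution 0.5. Its call was also lost with a pseudocount of 10 ppm (0.93), the stricter cell filter (0.98) and unnamed clusters added (0.92), and was kept in 15 of 21 alternatives. Khk (3.47) was 3.12 with a pseudocount of 10 ppm, 2.96 with the stricter cell filter, 3.10 with called doublets kept, 2.73 at resolution 0.5, 3.08 at resolution 2, 3.12 with pathway genes in the clustering and 3.12 under the first rule. Tkfc (2.80) was 2.48, 2.53, 2.56 and 2.35 under the first 4 of these, 2.60 with pathway genes in the clustering, 2.46 under the first rule and 2.52 under the 100 ppm form. G6pc (4.89) was 2.55 with a pseudocount of 10 ppm, which turned its order with Khk. The 3187 genes called lower were 5170 with no minimum level.

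Between distal and proximal enterocyte-like cells, values without rescaling were -2.03 for Khk, -1.94 for Tkfc and -2.23 for G6pc, where the median over the genes tested went from -0.15 to -0.57 and the calls from 826 higher and 1434 lower to 441 and 2609. Proximal scoring genes alone gave -1.97, -1.74 and -2.61, and distal scoring genes alone -0.89, -0.86 and -0.63, with -2.14 for Fbp1. Tip-high cells alone gave -2.08, -1.94 and -2.51, and tip-low cells alone -1.31, -1.22 and -1.33. The first rule gave -0.93, -0.79, -1.22 and, for Fbp1, -1.55, with 95 genes higher and 160 lower. The 100 ppm form of the last rule gave -1.33, -1.23 and -1.07. Genes called lower were 889 with a pseudocount of 10 ppm, 828 with the stricter filter and 631 in cells matched on detected genes.

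Between tip-high and tip-low cells, Khk (-0.50) was -0.57 without rescaling, -0.035 with the stricter filter, -0.15 at resolution 2, -0.43 with 3 tip genes, -0.23 in matched cells and -0.78 under the 100 ppm form. Tkfc (-0.38) was -0.034, -0.079, -0.12 and -0.61 under the stricter filter, resolution 2, matched cells and the 100 ppm form. G6pc (-0.16) was 0.25, 0.19, -0.50 and -0.57 under the stricter filter, resolution 2, the first rule and the 100 ppm form, and Fbp1 (-0.30) was -0.78 and -0.79 under the last 2. In progenitor-like cells Khk (-0.49) was -1.07 at resolution 2 and 0.23 with distal scoring genes alone. The cause of these shifts was not tested. The depth is unknown, so low levels such as those of G6pc in the crypt have no counting limit.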
